A study of Homo sapiens with 30 samples.

Results

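The question here was whether degrading CTCF changed what DNMT1 inhibition did to RNA levels, gene by gene. All 12 libraries of HaloTag-CTCF HCT116 cells, of 30 libraries in the series, entered a single fit of a 2 by 2 design, and the quantity reported is the interaction: the log2 response to the DNMT1 inhibitor (DNMT1i) in cells given HaloPROTAC3, minus the log2 response in cells that were not. A positive value means that DNMT1i moved the RNA further up, or less far down, when HaloPROTAC3 was present, and a negative value the reverse. The 4 groups, of 3 libraries each, were plusHaloPROTAC3 DNMT1i, plusHaloPROTAC3 DMSO, minusHaloPROTAC DNMT1i and minusHaloPROTAC DMSO. DNMT1i was used at 10 µM for 1 day, and DMSO, the solvent, stood in for it in the controls. HaloPROTAC3 was given before and during that day in the plusHaloPROTAC3 groups. Every group carried the HaloTag on both copies of CTCF, in a line isolated as a single clone of HCT116, a human colon cancer cell line, so untagged cells and other clones are not represented in the fit. The methods describe the replicates as separate cultures.

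CTCF binds DNA at many sites across the genome, anchors chromatin loops together with cohesin and separates neighbouring regulatory domains. Many of its sites contain a CG dinucleotide, and methylation there can prevent binding. DNMT1 copies CG methylation onto the new strand after replication, so its inhibition lowers methylation as cells divide and can uncover CTCF sites and silenced genes. HaloPROTAC3 links a HaloTag protein to the VHL ubiquitin ligase, which marks the protein for destruction. CTCF was thus removed as a protein and DNMT1 was blocked as an enzyme, so the mRNA levels of CTCF and DNMT1 do not show whether either was achieved.

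The libraries held 4243092 to 9407430 counts in genes, and 19711 to 21944 genes had at least 1 count. Among the markers of colon epithelium, EPCAM was at 260.8 to 332.9 CPM, a gene's count scaled by library size, and KRT8 at 1191 to 1798 CPM in every library, while VIL1, CDX1 and TFF3 had at most 3 counts in all libraries together. Of 16 erythroid and 10 fibroblast markers, 4 and 3 had no count at all. In each list 1 marker was above 1 CPM in every library: EPOR at 7.35 to 12.47 CPM and COL1A1 at 12.13 to 29.62 CPM. In a principal component analysis, the first component (37.6% of the variance) separated the HaloPROTAC3 arms and the second (16.8%) separated DNMT1i from DMSO. On the third (9.97%), minusHaloPROTAC DMSO replicate 1 lay at -27.73 and plusHaloPROTAC3 DNMT1i replicate 2 at -15.47, with the other 10 libraries between -4.98 and 10.83, so main counts are also given without these libraries.

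CTCF mRNA itself was at 202.6, 194.0 and 211.0 CPM in plusHaloPROTAC3 DNMT1i and 215.3, 216.3 and 214.2 CPM in plusHaloPROTAC3 DMSO, against 128.5, 125.8 and 126.8 CPM in minusHaloPROTAC DNMT1i and 132.3, 126.0 and 131.1 CPM in minusHaloPROTAC DMSO. The 6 libraries with HaloPROTAC3 were thus all above the 6 without it, in both treatments. The interaction for CTCF was -0.06 ± 0.098 (log2 ± SE; edgeR quasi-likelihood adjusted p = 0.845). DNMT1 mRNA averaged 350.2 ± 27.8 CPM in plusHaloPROTAC3 DNMT1i and 407.7 ± 8.52 CPM in plusHaloPROTAC3 DMSO, against 400.7 ± 6.06 CPM in minusHaloPROTAC DNMT1i and 382.4 ± 13.5 CPM in minusHaloPROTAC DMSO (SD, n = 3 each). Its interaction of -0.29 ± 0.097 did not pass after adjustment (edgeR adjusted p = 0.178).

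The response to DNMT1i differed between the arms in 34 of 12690 genes tested, which is 0.268% (edgeR quasi-likelihood test, Benjamini-Hochberg adjusted p below 0.05). Ribosomal protein genes led the 7 genes with a positive interaction (0.0552% of genes tested), whose values ran from 0.46 to 0.73. The other 27 genes had a negative interaction (0.213%), from -1.21 to -0.45, among them MKI67, PCNT, KMT2D, PLEC, HUWE1, HERC2 and SYNE2. The response itself was tested in each arm by edgeR at the same threshold. With HaloPROTAC3, all 7 positive genes rose in DNMT1i (2.86% of all genes did) and 22 of the 27 negative genes fell (2.55%), while SUSD2 rose. Without HaloPROTAC, 0 of the 7 positive genes fell (0.504%), although 7 had an estimate below 0, and 5 of the 27 negative genes rose (1.98%): SUSD2, NOTCH1, AGRN, CDC42BPG and POLR2A. These genes were selected by the difference between the same responses, so nothing is read from how many passed in each arm. Across all genes tested the median interaction was 0.007, with an interquartile range of -0.19 to 0.18, and the median SE was 0.178. Without adjustment, 1788 genes had p below 0.05, 850 positive (6.7%) and 938 negative (7.39%).

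**Figure D1:**
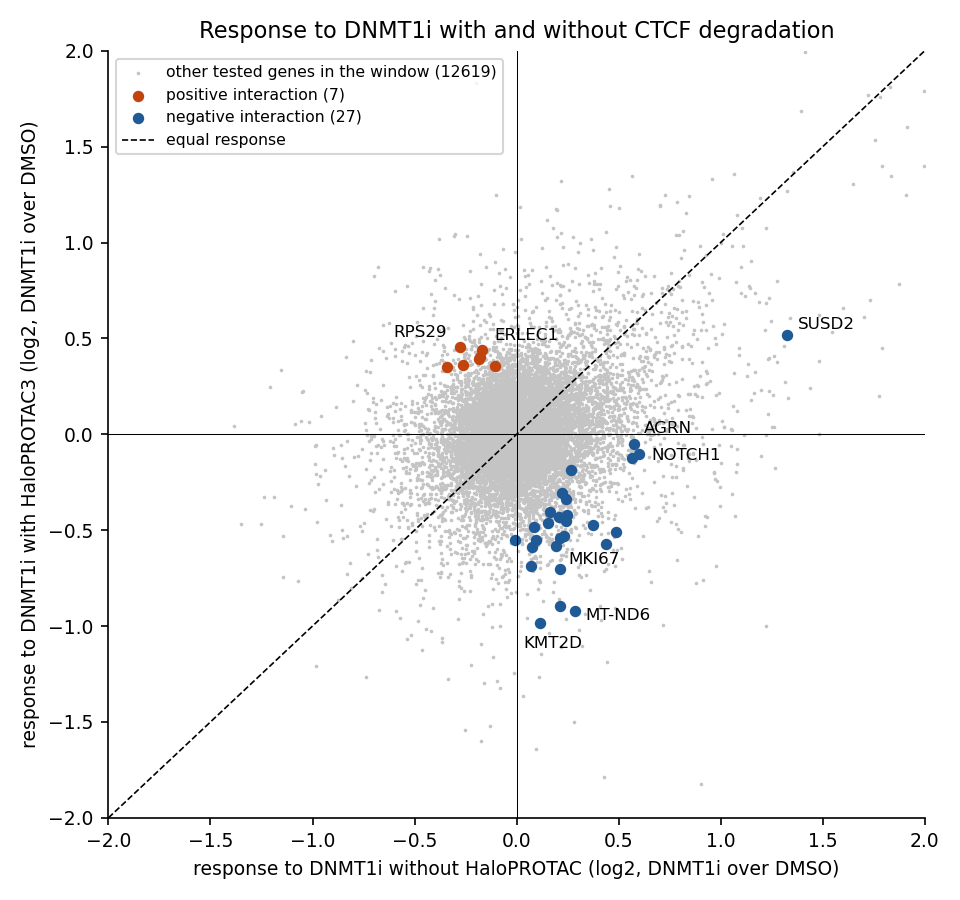
Each point is a gene, with its log2 response to DNMT1i without HaloPROTAC on the x axis and with HaloPROTAC3 on the y axis; the dashed line marks equal responses, and 37 genes fall outside the window. The 7 positive genes lie together above the horizontal axis and left of the vertical one, most of the 27 negative genes lie in the opposite corner, and SUSD2 stands alone at the right with a response above 0 in both arms.

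These calls depended on single libraries. With 1 library left out at a time, the same fit gave 0 positive and 0 negative genes without plusHaloPROTAC3 DMSO replicate 3, without minusHaloPROTAC DNMT1i replicate 2 and without minusHaloPROTAC DMSO replicate 2, and 0 and 1 without minusHaloPROTAC DNMT1i replicate 1. At an unadjusted p below 0.05, the edgeR fits with no call still held 1335, 1478 and 1698 genes, in the order just given. Leaving out minusHaloPROTAC DMSO replicate 1, which stood apart on the third component, left 3 positive and 9 negative genes, and leaving out plusHaloPROTAC3 DNMT1i replicate 2 left 6 and 14. The counts were instead larger without minusHaloPROTAC DMSO replicate 3 (72 positive and 166 negative) and without plusHaloPROTAC3 DMSO replicate 1 (10 and 87). Without plusHaloPROTAC3 DNMT1i replicate 3 there were 12 and 33, without plusHaloPROTAC3 DMSO replicate 2 there were 11 and 22, and the remaining fits gave 7 and 30 or 6 and 27. MKI67, the gene with the smallest p, was called in 9 of these 12 fits and each of the other 33 called genes in 3 to 8, while all 34 kept their sign in every one.

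**Figure D2:**
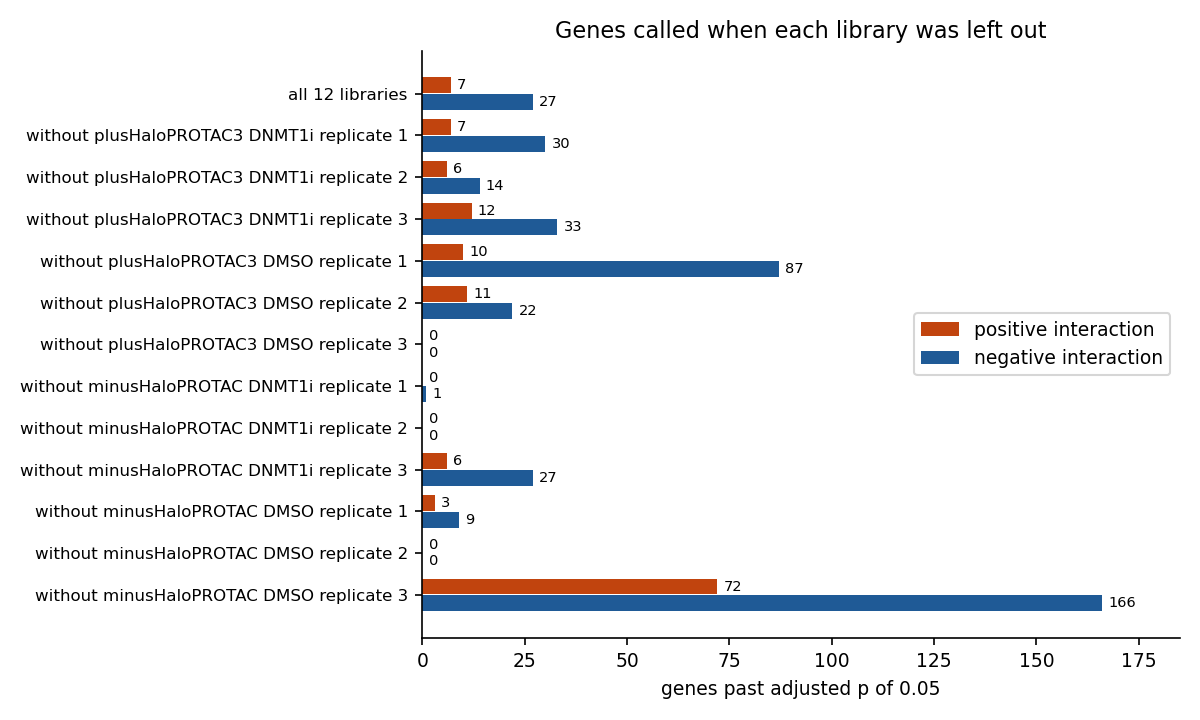
Bars give the number of genes with a positive or a negative interaction past an adjusted p of 0.05 in the fit of all 12 libraries and in each fit without 1 named library. The number ranged from 0 in both directions to 72 positive and 166 negative genes.

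RPS13, a protein of the small ribosomal subunit (chr11:17074388-17077715 in hg38), had 490.2, 435.8 and 457.1 CPM in plusHaloPROTAC3 DNMT1i and 349.6, 360 and 336.1 CPM in plusHaloPROTAC3 DMSO, against 327.1, 322.1 and 368.6 CPM in minusHaloPROTAC DNMT1i and 412.3, 392.4 and 345.9 CPM in minusHaloPROTAC DMSO. With HaloPROTAC3 every DNMT1i library was above every DMSO library, whereas without it the groups overlapped. The responses were 0.40 ± 0.075 with HaloPROTAC3 and -0.18 ± 0.076 without, an interaction of 0.58 ± 0.106 (edgeR adjusted p = 0.0154). RPS29, also of the small subunit, had 313.7, 240.6 and 290.6 CPM in plusHaloPROTAC3 DNMT1i and 182.5, 232.6 and 201.9 CPM in plusHaloPROTAC3 DMSO, against 170.7, 194.6 and 227.2 CPM in minusHaloPROTAC DNMT1i and 241.3, 239.3 and 234.9 CPM in minusHaloPROTAC DMSO. The groups separated in both arms, in opposite directions, and RPS29 had the largest positive interaction of the called genes, 0.73 ± 0.136 (edgeR adjusted p = 0.0154). RPS21 (0.63 ± 0.116, adjusted p = 0.0154), RPL27 (0.58 ± 0.121, 0.0359) and RPS26 (0.46 ± 0.101, 0.0374) completed the ribosomal genes called by edgeR. Both RPS13 and RPS29 lost the call without plusHaloPROTAC3 DMSO replicate 3, minusHaloPROTAC DNMT1i replicate 1 or 2, or minusHaloPROTAC DMSO replicate 2, with adjusted p up to 0.105. The values without these libraries were 0.54 to 0.565 for RPS13 and 0.63 to 0.73 for RPS29. Ribosomal protein genes have many processed copies in the genome, and reads that align to several places were not counted, so these levels are uncertain. The exons of RPS29 also overlap LRR1 and a pseudogene, RPL32P29.

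Positive values extended over nearly the whole family of cytosolic ribosomal proteins, the structural proteins of the ribosome. Of its 79 genes, all of which were tested, 76 had a positive interaction and 3 a negative one, against 6487 and 6203 of all 12690 genes. The family median was 0.24, against 0.007 for all genes tested and 0.11 for those with a transcript under 1000 bases. The median transcript length of the family was 785 bases. Only 5 passed the adjusted threshold, and 39 had an unadjusted p below 0.05, all positive, where 6.7% of all genes did. The summed level of the 79 genes was 62160, 53300 and 61800 CPM in plusHaloPROTAC3 DNMT1i and 51880, 52860 and 53470 CPM in plusHaloPROTAC3 DMSO, against 48270, 48510 and 53700 CPM in minusHaloPROTAC DNMT1i and 50560, 54220 and 50830 CPM in minusHaloPROTAC DMSO. Replicates 1 and 3 of plusHaloPROTAC3 DNMT1i stood above all other libraries, and replicate 2 lay close to its DMSO group. The mitochondrial share of gene counts moved with the group as well, at 14.98% to 16.91% in plusHaloPROTAC3 DNMT1i and 12.68% to 15.06% in plusHaloPROTAC3 DMSO, against 12.46% to 13.77% in minusHaloPROTAC DNMT1i and 12.09% to 12.96% in minusHaloPROTAC DMSO. The TMM factors were 0.926 to 0.980 in plusHaloPROTAC3 DNMT1i, against 0.980 to 1.04 in the other 9 libraries. The part of either in the ribosomal values was not tested. The family median stayed between 0.19 and 0.28 when any 1 of the 12 libraries was left out, and was 0.17 with both transcript length and GC corrected for, an alternative chosen after seeing the data. The 79 genes were measured in the same 12 libraries and are not independent of each other.

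ERLEC1 and GOLT1B were the 2 positive genes outside the ribosome. ERLEC1, a lectin of the endoplasmic reticulum that takes part in glycoprotein quality control, had 71.5, 77.6 and 83.2 CPM in plusHaloPROTAC3 DNMT1i and 57.6, 57.3 and 56.8 CPM in plusHaloPROTAC3 DMSO, against 39.5, 39.5 and 34.8 CPM in minusHaloPROTAC DNMT1i and 43.5, 41.9 and 43.4 CPM in minusHaloPROTAC DMSO. DNMT1i libraries were all above DMSO libraries with HaloPROTAC3 and all below them without, and the interaction was 0.61 ± 0.128 (edgeR adjusted p = 0.0364). GOLT1B, which acts in vesicle transport at the Golgi, had an interaction of 0.69 ± 0.157 (edgeR adjusted p = 0.0493).

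MKI67 encodes Ki-67, the surfactant of mitotic chromosomes used as a marker of dividing cells (chr10:128096659-128126423). Its level was 887.6, 824.6 and 973.6 CPM in plusHaloPROTAC3 DNMT1i and 1122, 1521 and 1377 CPM in plusHaloPROTAC3 DMSO, against 1083, 1249 and 1127 CPM in minusHaloPROTAC DNMT1i and 1037, 925.8 and 1064 CPM in minusHaloPROTAC DMSO. DNMT1i libraries were thus all below DMSO libraries with HaloPROTAC3 and all above them without, and the plusHaloPROTAC3 DMSO group was the highest of the 4. The responses were -0.58 ± 0.088 with HaloPROTAC3 and 0.19 ± 0.088 without, giving an interaction of -0.77 ± 0.125, the smallest p of all genes (edgeR adjusted p = 0.00957). The call was lost without plusHaloPROTAC3 DMSO replicate 3, minusHaloPROTAC DNMT1i replicate 2 or minusHaloPROTAC DMSO replicate 2, where the adjusted p reached 0.101 while the value stayed between -0.75 and -0.71. MKI67 was the only one of 28 tested G2/M genes to be called, where 0.268% of all genes were, and the median of that list was 0.03. At an unadjusted p below 0.05 (edgeR) 3 of the 28 were positive and 2 negative, where 6.7% and 7.39% of all genes were. CENPF, a kinetochore protein, had -0.42 ± 0.117 (edgeR adjusted p = 0.101), and CDK1, the mitotic kinase, had 0.29 ± 0.117 (adjusted p = 0.259).

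A nuclear noncoding RNA and a mitochondrial mRNA stood among the negative genes. MALAT1, an abundant nuclear noncoding RNA found at nuclear speckles, had 635.2, 827.2 and 770.3 CPM in plusHaloPROTAC3 DNMT1i and 848.9, 1175 and 1034 CPM in plusHaloPROTAC3 DMSO, against 745.5, 860.2 and 747.7 CPM in minusHaloPROTAC DNMT1i and 649.4, 628.1 and 714.4 CPM in minusHaloPROTAC DMSO. As for MKI67, both arms separated in opposite directions, and the interaction was -0.695 ± 0.135 (edgeR adjusted p = 0.019). MT-ND6, a mitochondrially encoded subunit of respiratory complex I, had 72.7, 110.2 and 93.2 CPM in plusHaloPROTAC3 DNMT1i and 173.8, 150.6 and 200.4 CPM in plusHaloPROTAC3 DMSO, against 254.3, 289.3 and 258.1 CPM in minusHaloPROTAC DNMT1i and 137.4, 208.7 and 311.2 CPM in minusHaloPROTAC DMSO. The last group spread over more than the whole difference without HaloPROTAC, where DNMT1i and DMSO overlapped, and the interaction of -1.21 ± 0.226 was the lowest of the called genes (edgeR adjusted p = 0.0157). The other 12 mitochondrially encoded genes were not called, and 11 of the 13 had a positive value (median 0.11). MT-ND6 is read from the strand opposite to its neighbours and MALAT1 overlaps an antisense gene, TALAM1. Whether counting used strand is not stated by the sources at hand, so reads of such pairs cannot be told apart with certainty. The libraries were poly(A)-selected, and how fully that step kept MALAT1 and MT-ND6 in each library was not tested, so their counts may not follow their levels. MALAT1 and MT-ND6 both lost the call in the 4 fits in which RPS13 did, with values of -0.73 to -0.63 for MALAT1 and -1.245 to -1.10 for MT-ND6.

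**Figure D3:**
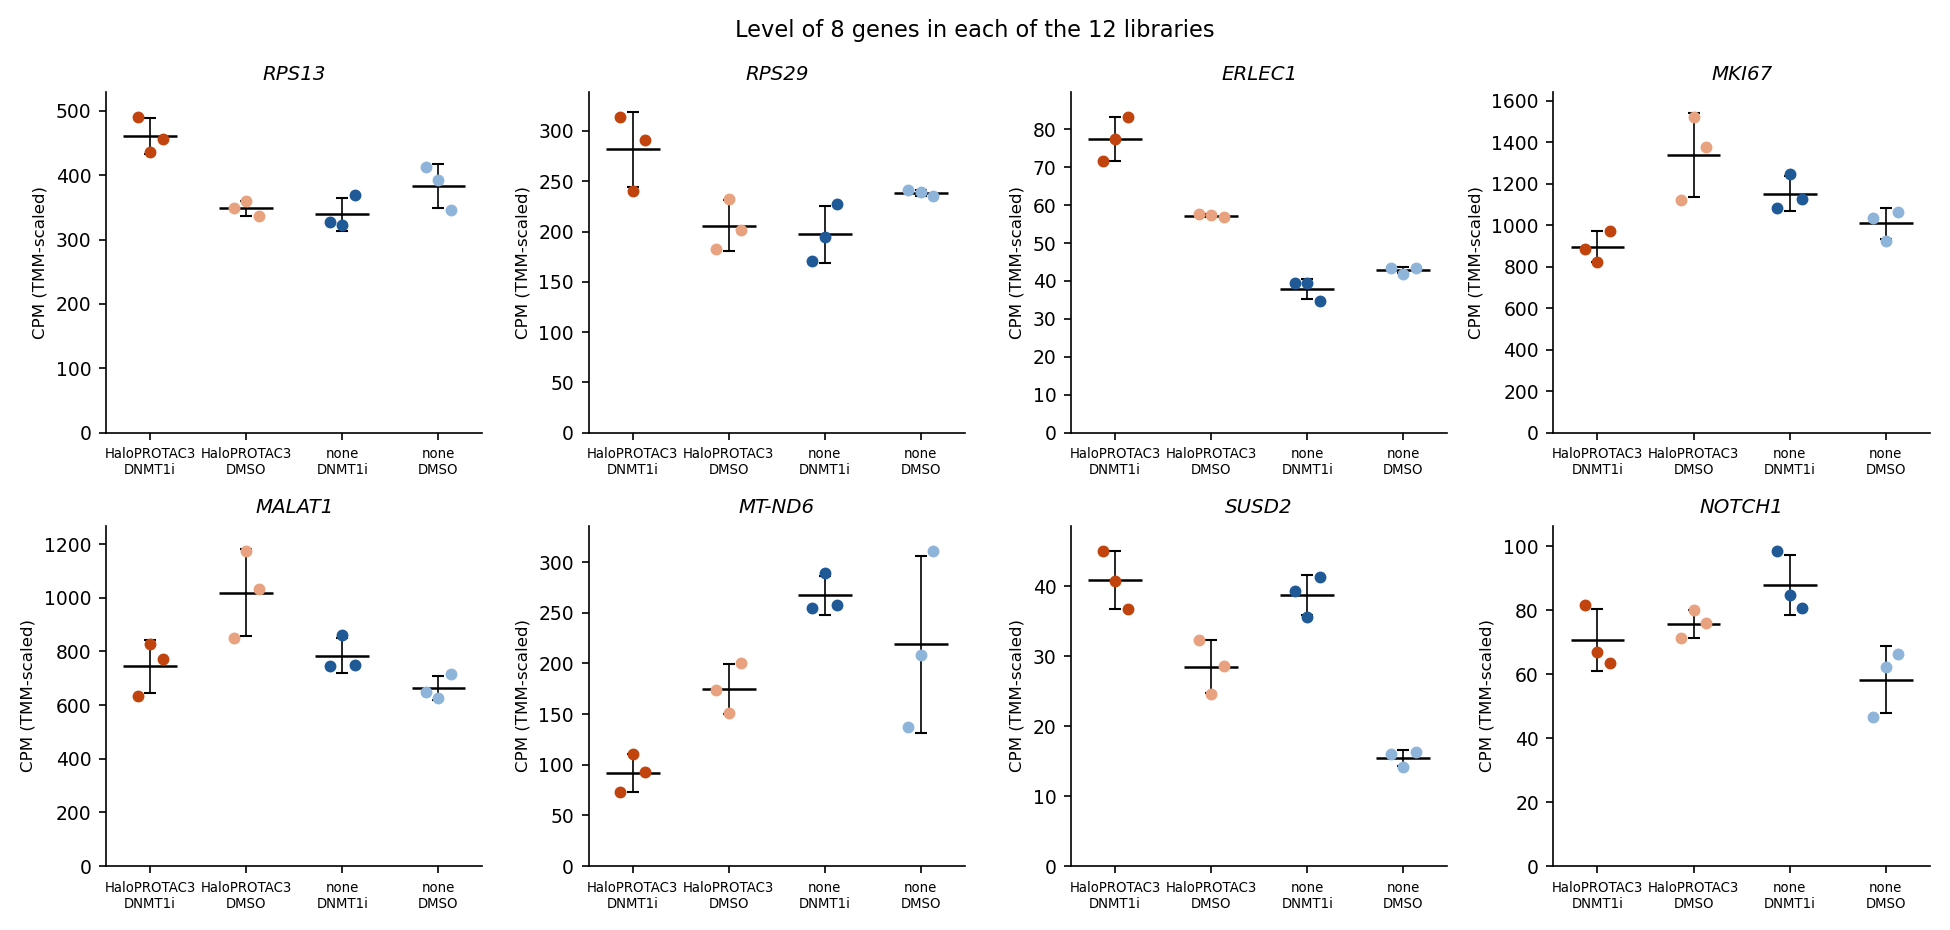
Points are the 12 libraries, in TMM-scaled CPM on linear axes from 0, and black lines and bars are the mean and SD of 3 libraries; none means that no HaloPROTAC was given. In RPS13, RPS29 and ERLEC1 the first group stands above the second, in MKI67, MALAT1 and MT-ND6 it stands below it, and in SUSD2 and NOTCH1 the last group is the lowest.

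The negative protein-coding genes were grouped by known role after their values had been seen. Regulators of chromatin and transcription were KMT2D, a histone H3 lysine 4 methyltransferase (-1.10 ± 0.225), HCFC1, a chromatin-bound coregulator (-0.62 ± 0.12), EP400, a chromatin remodeller (-0.66 ± 0.151), HIPK2, a nuclear kinase (-0.65 ± 0.142), and POLR2A, the largest subunit of RNA polymerase II (-0.45 ± 0.0958). KMT2D had 88.7, 74.9 and 73.8 CPM in plusHaloPROTAC3 DNMT1i and 109.7, 186.7 and 173.9 CPM in plusHaloPROTAC3 DMSO, against 104.8, 152.1 and 89.2 CPM in minusHaloPROTAC DNMT1i and 88.6, 98.1 and 133.3 CPM in minusHaloPROTAC DMSO. Its DNMT1i and DMSO libraries separated with HaloPROTAC3 and overlapped without it. POLR2A was at 569.1, 565.9 and 568.4 CPM in plusHaloPROTAC3 DNMT1i and 610.8, 661.9 and 664.2 CPM in plusHaloPROTAC3 DMSO, against 589.6, 625.4 and 574.2 CPM in minusHaloPROTAC DNMT1i and 478.4, 482.2 and 529.6 CPM in minusHaloPROTAC DMSO, so that the lowest of the 4 groups was minusHaloPROTAC DMSO.

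Genes of the cytoskeleton, the nuclear envelope and the centrosome formed the next set. They were PLEC, the cytolinker plectin (-0.85 ± 0.177), MYH9, nonmuscle myosin heavy chain (-0.57 ± 0.122), FLNC, an actin crosslinker (-0.64 ± 0.137), SYNE2, which ties the nucleus to the cytoskeleton (-1.10 ± 0.252), LMNB2, a nuclear lamin (-0.58 ± 0.131), and PCNT, the centrosome scaffold pericentrin (-0.755 ± 0.133). PCNT had 69.2, 59.8 and 68.0 CPM in plusHaloPROTAC3 DNMT1i and 88.2, 106.6 and 92.3 CPM in plusHaloPROTAC3 DMSO, against 76.6, 81.9 and 71.1 CPM in minusHaloPROTAC DNMT1i and 63.4, 61.2 and 74.3 CPM in minusHaloPROTAC DMSO. Only the arm with HaloPROTAC3 separated for PCNT (edgeR adjusted p of the interaction = 0.0154). The ubiquitin ligases HERC2 (-0.92 ± 0.187, edgeR adjusted p = 0.0286) and HUWE1 (-0.76 ± 0.163, 0.0364) and the basement membrane proteoglycan HSPG2, perlecan (-0.997 ± 0.195, 0.019), were also among the negative genes. Further negative genes were EHBP1L1, which binds Rab8 on tubular endosomes (-1.01 ± 0.193), SOGA1, a microtubule-associated protein (-0.76 ± 0.139), ERC1, a scaffold protein (-0.57 ± 0.124), TNRC18 (-0.67 ± 0.148) and PRRC2C (-0.54 ± 0.108). EHBP1L1 joined MKI67, MALAT1 and POLR2A as the 4 of 27 negative genes whose DNMT1i libraries were all below DMSO with HaloPROTAC3 and all above it without. That order was found in 0.465% of all genes tested, and the opposite order, which RPS21, RPS29 and ERLEC1 had among the 7 positive genes, in 0.623%. The called genes were selected for the difference that this order shows, and nothing is read from these counts.

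SUSD2, a cell surface protein (chr22:24181487-24189106), was the 1 called gene that was higher in DNMT1i in both arms. It had 45, 40.7 and 36.75 CPM in plusHaloPROTAC3 DNMT1i and 32.25, 24.6 and 28.6 CPM in plusHaloPROTAC3 DMSO, against 39.25, 35.6 and 41.35 CPM in minusHaloPROTAC DNMT1i and 16.0, 14.2 and 16.3 CPM in minusHaloPROTAC DMSO. The DNMT1i groups overlapped with each other, while the DMSO libraries with HaloPROTAC3 were all above those without. The responses were 0.52 ± 0.112 with HaloPROTAC3 and 1.33 ± 0.131 without, an interaction of -0.81 ± 0.174 (edgeR adjusted p = 0.0364). The call held in 3 of the 12 fits that left out a library: without plusHaloPROTAC3 DNMT1i replicate 1, plusHaloPROTAC3 DMSO replicate 2 or minusHaloPROTAC DMSO replicate 3. Across the 12 fits the value ran from -0.91 to -0.70, with adjusted p from 0.0182 to 0.129.

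NOTCH1, AGRN and CDC42BPG were near 0 with HaloPROTAC3 and positive without it. NOTCH1, a receptor of cell-to-cell signalling (chr9:136494433-136546048), had 81.8, 67.1 and 63.5 CPM in plusHaloPROTAC3 DNMT1i and 71.35, 80.0 and 76.0 CPM in plusHaloPROTAC3 DMSO, against 98.65, 84.8 and 80.6 CPM in minusHaloPROTAC DNMT1i and 46.6, 62.2 and 66.25 CPM in minusHaloPROTAC DMSO. The groups overlapped with HaloPROTAC3 and separated without it, with responses of -0.10 ± 0.106 and 0.60 ± 0.11 and an interaction of -0.70 ± 0.153 (edgeR adjusted p = 0.0374). AGRN, the proteoglycan agrin, showed the same order, with responses of -0.05 ± 0.0961 and 0.57 ± 0.101 and an interaction of -0.62 ± 0.139 (adjusted p = 0.0465). CDC42BPG, a kinase that acts downstream of CDC42, had responses of -0.12 ± 0.107 and 0.57 ± 0.116 and an interaction of -0.69 ± 0.158 (adjusted p = 0.0493). NOTCH1 was called in 4 of the 12 fits that left out a library, and AGRN and CDC42BPG in 3 each. All 3 lost the call without plusHaloPROTAC3 DNMT1i replicate 2 or 3, plusHaloPROTAC3 DMSO replicate 3, minusHaloPROTAC DNMT1i replicate 1 or 2, or minusHaloPROTAC DMSO replicate 1 or 2. NOTCH1 and CDC42BPG also lost it without plusHaloPROTAC3 DMSO replicate 2, AGRN without replicate 1 of plusHaloPROTAC3 DNMT1i or of plusHaloPROTAC3 DMSO, and CDC42BPG without minusHaloPROTAC DNMT1i replicate 3.

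DNMT1 inhibition lowers methylation at CG dinucleotides, and CTCF is named after the CCCTC repeats of an early binding site. The 250 bases before the RefSeq start (GRCh38.p14) are therefore shown for 4 genes of different response: NOTCH1, MKI67, RPS29 and TKTL1. In NOTCH1, DNMT1i was above DMSO without HaloPROTAC and overlapped with it when HaloPROTAC3 was given. TKTL1, a transketolase-like gene, was near 0 in DMSO and present in DNMT1i in both arms. The windows lie at chr9:136546049-136546298 (minus strand), chr10:128126424-128126673 (minus strand), chr14:49598711-49598960 (minus strand) and chrX:154295545-154295794 (plus strand). The windows of NOTCH1, MKI67 and TKTL1 directly adjoin the annotated gene, whereas that of RPS29 lies inside it (chr14:49570984-49599164). Which RPS29 transcript starts at that window was not tested, so the window may not be the promoter behind the RPS29 counts. Each is printed 5′ to 3′ on the strand of the gene, with every CG in capitals.
NOTCH1: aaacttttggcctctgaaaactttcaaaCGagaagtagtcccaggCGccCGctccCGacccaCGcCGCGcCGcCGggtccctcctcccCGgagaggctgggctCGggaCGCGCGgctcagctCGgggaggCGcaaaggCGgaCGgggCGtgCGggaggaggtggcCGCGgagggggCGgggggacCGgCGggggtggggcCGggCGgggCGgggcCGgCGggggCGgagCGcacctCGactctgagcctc
MKI67: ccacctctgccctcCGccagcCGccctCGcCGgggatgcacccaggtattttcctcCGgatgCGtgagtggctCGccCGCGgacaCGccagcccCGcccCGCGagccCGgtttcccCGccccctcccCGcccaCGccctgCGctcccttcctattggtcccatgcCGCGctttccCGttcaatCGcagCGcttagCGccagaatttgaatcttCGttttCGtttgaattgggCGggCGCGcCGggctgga
RPS29: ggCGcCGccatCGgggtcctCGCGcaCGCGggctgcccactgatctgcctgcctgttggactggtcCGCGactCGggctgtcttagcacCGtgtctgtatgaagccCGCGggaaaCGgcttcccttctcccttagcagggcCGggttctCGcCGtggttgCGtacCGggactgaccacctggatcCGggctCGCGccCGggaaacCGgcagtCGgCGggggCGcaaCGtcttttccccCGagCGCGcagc
TKTL1: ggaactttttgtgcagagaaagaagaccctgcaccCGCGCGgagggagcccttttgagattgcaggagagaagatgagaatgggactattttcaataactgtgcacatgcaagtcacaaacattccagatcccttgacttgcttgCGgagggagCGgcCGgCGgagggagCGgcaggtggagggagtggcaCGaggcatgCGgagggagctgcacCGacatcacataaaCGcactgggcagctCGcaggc

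The windows of NOTCH1, MKI67 and RPS29 hold 33, 30 and 31 CG, and at least as many are found in 8.15%, 12.4% and 10.9% of 35116 RefSeq promoter windows of the same length. The TKTL1 window holds 13 CG (46.6% of windows hold at least as many), against a median of 11. CCCTC, searched on both strands, occurred 2 times in the NOTCH1 window, 3 times in that of MKI67, 0 times in that of RPS29 and 5 times in that of TKTL1. At least as many are found in 37.8% of windows for NOTCH1, 19.5% for MKI67 and 4.4% for TKTL1, and 66.6% of all windows hold at least 1. These are matches of letters, and neither methylation nor CTCF binding was measured in the libraries used here.

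Genes that DNMT1i induces strongly were examined through a list taken from other libraries of the series: the 100 genes with the largest increase in wild-type HCT116 cells after 3 days of DNMT1i, all at adjusted p below 0.05, with log2 changes of 9.45 to 12.51. Most were silent or nearly so after 1 day in HaloTag-CTCF cells, and only 8 of the 100 passed the filter on low counts. The summed level of all 100 was 54.5, 58.0 and 58.2 CPM in plusHaloPROTAC3 DNMT1i and 2.25, 0.752 and 1.85 CPM in plusHaloPROTAC3 DMSO, against 67.9, 73.0 and 78.3 CPM in minusHaloPROTAC DNMT1i and 1.89, 2.05 and 2.01 CPM in minusHaloPROTAC DMSO. DNMT1i with HaloPROTAC3 was thus below DNMT1i without it in every pair of libraries. The ratio of DNMT1i to DMSO was 35.2 with HaloPROTAC3 and 36.8 without. The DMSO sums rest on only 20, 7 and 12 counts with HaloPROTAC3 and 9, 12 and 10 without, so the ratios are too uncertain to compare. In DNMT1i, 34 members had a higher mean with HaloPROTAC3, 53 a lower one and 13 no count in either. The 8 tested members passed the filter through the groups where they are high, and 6 of them had no count in at least 1 group, so their interaction tests are uninformative and are not counted. In DMSO, 62 of the 100 had no count in any of the 6 libraries, so the interaction of such genes is poorly defined at this depth.

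TKTL1, the most abundant member, had 15.5, 18.3 and 18.4 CPM in plusHaloPROTAC3 DNMT1i and 0.112, 0 and 0.154 CPM in plusHaloPROTAC3 DMSO, against 18.0, 21.0 and 21.4 CPM in minusHaloPROTAC DNMT1i and 0 CPM in all 3 minusHaloPROTAC DMSO libraries. In raw counts these were 289, 2, 336 and 0 over the 3 libraries of each group. CTCFL, a testis paralog of CTCF with a similar DNA-binding domain, followed the same pattern, at 2.32, 2.82 and 2.19 CPM in plusHaloPROTAC3 DNMT1i and 0, 0.107 and 0 CPM in plusHaloPROTAC3 DMSO, against 2.82, 4.57 and 3.48 CPM in minusHaloPROTAC DNMT1i and 0 CPM in minusHaloPROTAC DMSO. CTCFL, too, passed the filter through the groups where it is high, and 1 group had no count. Its interaction test is therefore uninformative, and neither a p-value nor a fold is given. H19, an imprinted noncoding RNA next to a CTCF-bound control region, had counts in every group: 7.34, 6.04 and 7.82 CPM in plusHaloPROTAC3 DNMT1i and 1.348, 1.18 and 1.85 CPM in plusHaloPROTAC3 DMSO, against 7.93, 8.19 and 4.41 CPM in minusHaloPROTAC DNMT1i and 0.63, 1.02 and 1.61 CPM in minusHaloPROTAC DMSO. DNMT1i was above DMSO in both arms, and the interaction of -0.36 ± 0.505 leaves a wide range (edgeR adjusted p = 0.802). MEG3, another imprinted noncoding RNA, stayed at or below 0.465 CPM in every library and was not tested.

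Of 66 germline and cancer-testis genes, whose promoters are commonly methylated in somatic cells, 15 were tested, 6 of them with no count in 1 group or more. None was called by edgeR, and 2 positive and 1 negative had an unadjusted p below 0.05, where 6.7% and 7.39% of all genes did (GTSF1 0.35 ± 0.119, MAGEB2 0.22 ± 0.0997, TEX14 -0.97 ± 0.378). The median was -0.14 over the 15 and 0.05 over the 9 with counts in every group. The 66 genes together were at 447.7 ± 11 CPM in plusHaloPROTAC3 DNMT1i and 375.0 ± 10.8 CPM in plusHaloPROTAC3 DMSO, against 417.5 ± 16.8 CPM in minusHaloPROTAC DNMT1i and 381.8 ± 9.86 CPM in minusHaloPROTAC DMSO (SD, n = 3 each). Clustered protocadherins, whose promoter choice depends on CTCF, were nearly silent, with 2 of 53 tested and neither called. Among 24 tested imprinted genes the median was 0.09, and PEG10, a retrotransposon-derived gene, had responses of 0.74 ± 0.0949 with HaloPROTAC3 and 1.17 ± 0.111 without (interaction -0.43 ± 0.146, edgeR adjusted p = 0.179).

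Genes of the machinery under test had no call. Among 20 tested genes of DNA methylation and its removal, 14 were negative, against 6203 of all 12690 genes tested. An unadjusted p below 0.05 (edgeR) was found in 6, all negative, against 7.39% of all genes, and the median was -0.10. UHRF1, which brings DNMT1 to newly replicated DNA, had 108.8, 95.3 and 125.3 CPM in plusHaloPROTAC3 DNMT1i and 126.8, 108.2 and 131.7 CPM in plusHaloPROTAC3 DMSO, against 168.5, 169.2 and 154.5 CPM in minusHaloPROTAC DNMT1i and 97.45, 140.3 and 147.3 CPM in minusHaloPROTAC DMSO. The groups overlapped with HaloPROTAC3 and separated without it, but the interaction of -0.50 ± 0.154 did not pass (edgeR adjusted p = 0.133), nor did that of TET3, which oxidises methylcytosine (-0.55 ± 0.166, adjusted p = 0.123). The 21 genes of CTCF, cohesin and its loaders had a median of -0.005, with SMC1A, a core cohesin subunit, at -0.29 ± 0.0998 (adjusted p = 0.179).

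Nuclear speckles, the splicing factor bodies whose contacts with CTCF sites the study examined, were represented by 48 tested genes with a median of -0.08. Of these, 1 was positive and 6 were negative at an unadjusted p below 0.05 (edgeR), where 6.7% and 7.39% of all genes were. SRRM2, one of the scaffold proteins of speckles, lay just outside the threshold: it had 966.1, 891.9 and 829.4 CPM in plusHaloPROTAC3 DNMT1i and 1033, 1281 and 1163 CPM in plusHaloPROTAC3 DMSO, against 950.8, 958.7 and 926.8 CPM in minusHaloPROTAC DNMT1i and 882.3, 830.8 and 937.9 CPM in minusHaloPROTAC DMSO. The interaction was -0.47 ± 0.108 (edgeR adjusted p = 0.0519). SON, the other scaffold, had -0.14 ± 0.101 (adjusted p = 0.575).

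The remaining lists held no called gene. Their medians were 0.08 for 31 interferon-stimulated genes, 0.11 for 18 heat shock genes, 0.001 for 26 genes of the integrated stress response, -0.007 for 28 of hypoxia and glycolysis, -0.03 for 29 of S phase, -0.045 for 29 p53 targets, -0.05 for 25 of cholesterol synthesis and -0.06 for 34 immediate-early genes, beside 0.007 for all genes tested. The median does not describe cholesterol synthesis well: 12 of its genes were positive and 13 negative, and 6 of the 25 had an unadjusted p below 0.05, all positive, where 6.7% of all genes did. They included MSMO1, a sterol oxidase (0.57 ± 0.178, edgeR adjusted p = 0.137), and INSIG1, which retains the sterol sensor in the endoplasmic reticulum (0.42 ± 0.167, 0.245). The median of the list was 0.04 with each library's trend on transcript GC removed, an alternative chosen after seeing the data. In the other lists just given, at most 3 genes in either direction had an unadjusted p below 0.05, beside 6.7% positive and 7.39% negative of all genes. Closest to the threshold among members of these lists were ATF5, a stress-response transcription factor (-0.64 ± 0.155, edgeR adjusted p = 0.0634), POLE, the catalytic subunit of DNA polymerase epsilon (-0.47 ± 0.116, 0.0634), and B2M, the light chain of MHC class I (0.425 ± 0.111, 0.0764). ATF5 was above DMSO in both arms, with responses of 0.25 ± 0.106 with HaloPROTAC3 and 0.89 ± 0.113 without. Of 9 tested colon epithelial markers, 2 erythroid and 1 fibroblast marker, none was called.

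**Figure D4:**
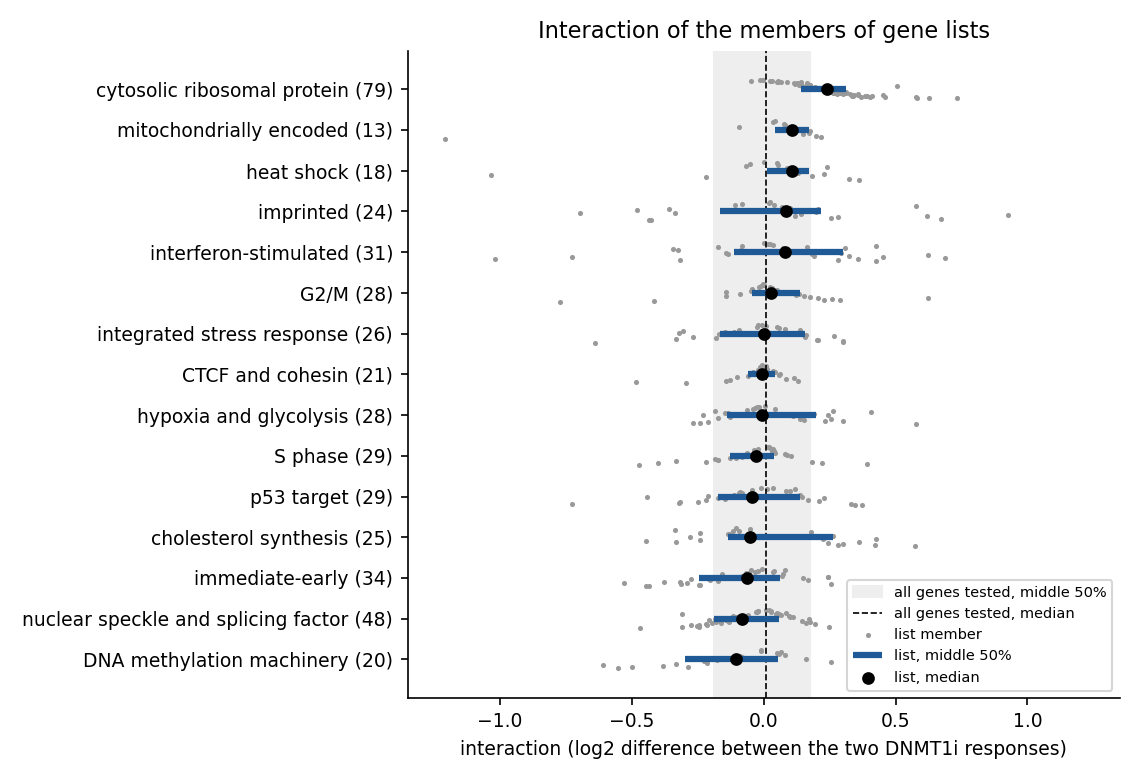
Each grey point is a tested member of a list, placed by its interaction (log2), with the list's median as a black dot and its interquartile range as a blue bar; grey shading and the dashed line give the same for all 12690 genes, and lists with fewer than 10 tested members or with members at 0 in a whole group are left out. In the ribosomal protein list 76 of 79 points lie right of 0, around a median of 0.24, and MT-ND6 lies far left of the other mitochondrially encoded genes.

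The positive and negative called genes also differed, by median and not in every gene, in 2 features of sequence that the design did not use. The canonical transcript (GENCODE 44) had a median length of 527 bases in the 7 positive genes and 10434 bases in the 27 negative ones, against 3213 bases over all genes tested. Median GC content was 46.1%, 58.3% and 48.4% in the same 3 sets. Lengths ran from 295 to 3253 bases in the positive genes and from 525 to 21822 bases in the negative ones. GC content ran from 33.2% to 52.2% and from 42% to 67.6%, so the ranges overlapped in both features. Of the 27 negative genes, 19 had a transcript of 8000 bases or more, a class of 1046 tested genes, whereas 4 of the 7 positive genes were among the 1154 shorter than 1000 bases. Over all genes the median interaction was 0.11 below 1000 bases and -0.12 from 8000 bases, and 0.15 below 40% GC and -0.19 from 60%. Across the 12673 genes with a length, the interaction had r = -0.143 with log2 length (Spearman rho = -0.145), or r = -0.291 (rho = -0.246) over the 5744 with a mean log2 CPM of 5 or more, and r = -0.33 with GC (rho = -0.4), as a description, since genes share the same 12 libraries and are not independent.

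The trends differed between the arms. By length, the median response with HaloPROTAC3 was 0.11 in the shortest class and -0.13 in the longest, while without HaloPROTAC it was -0.005 and -0.013. By GC, the response without HaloPROTAC was -0.08 in the lowest class and 0.13 in the highest, against 0.075 and -0.037 with HaloPROTAC3. Among single libraries, transcripts of 8000 bases or more took 9.82%, 10.1% and 9.598% of nuclear gene counts in plusHaloPROTAC3 DNMT1i and 10.3%, 12.01% and 11.1% in plusHaloPROTAC3 DMSO, against 10.2%, 10.6% and 9.88% in minusHaloPROTAC DNMT1i and 10.2%, 9.695% and 10.1% in minusHaloPROTAC DMSO. Replicates 2 and 3 of plusHaloPROTAC3 DMSO were thus the highest of the 12. Slopes on GC were taken over the 5744 genes with a mean log2 CPM of 5 or more. They describe each gene's log2 deviation from its mean over the 12 libraries. Per 10 points of GC the slope was -0.143 in minusHaloPROTAC DMSO replicate 1, the lowest, and -0.102 to 0.094 in the other 11 libraries. With each library's trend on length removed, an alternative chosen after seeing the data, 5 positive and 6 negative genes were called, 10 of them among the 34. The interaction of the 34 shrank by a median of 16.2%, with a median of -0.56 in the 27 negative genes, against -0.69 without the correction. Removal of the GC trend gave 48 and 51 genes, with 29 of the 34 and a median shrinkage of 13%. Removal of both gave 13 and 5 genes and a median shrinkage of 38.4%, with a median of -0.39 in the 27 negative genes and 0.46 in the 7 positive ones (0.61 uncorrected). The 10 of the 34 that passed with both removed were RPS13, RPS21, RPS29, RPL27, RPS26, MKI67, MT-ND6, EHBP1L1, MALAT1 and PRRC2C. Whether length or GC plays a part in the interaction was not tested.

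**Figure D5:**
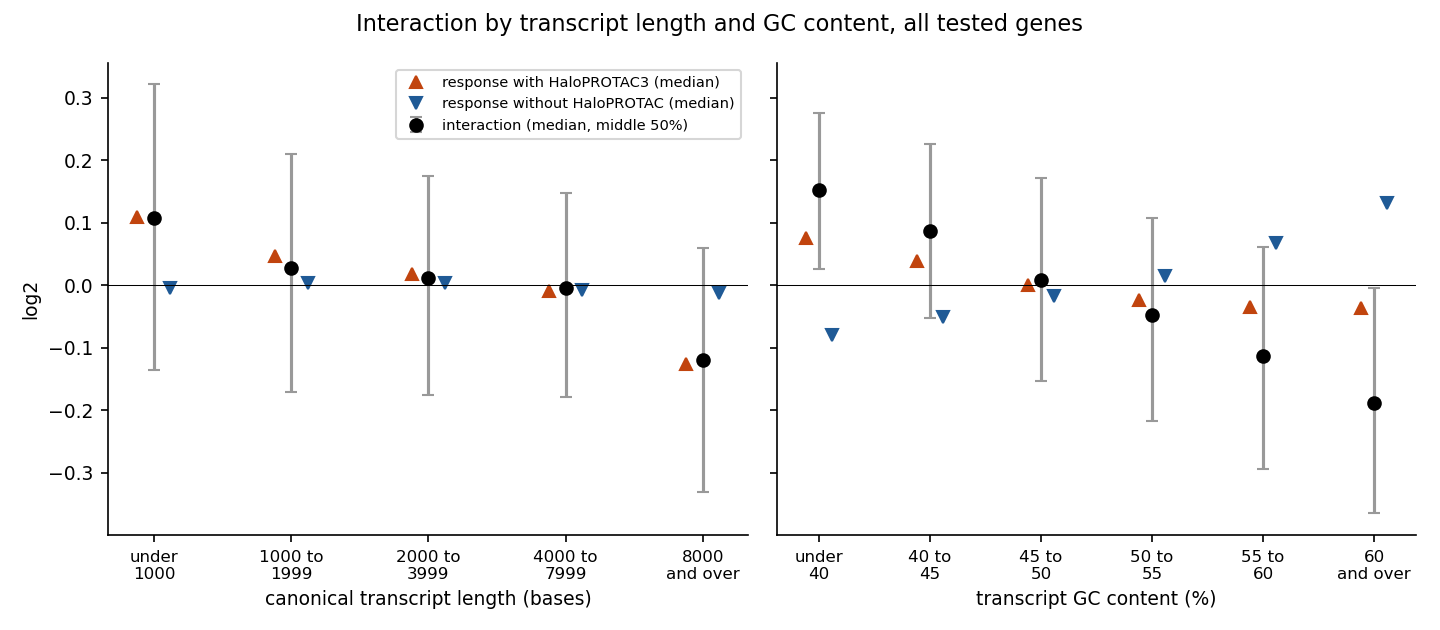
Black dots and grey bars give the median and interquartile range of the interaction (log2) in classes of transcript length (left) and GC content (right) over all tested genes with a transcript; triangles give the median responses in each arm. By length the response with HaloPROTAC3 runs from 0.11 to -0.13 while the one without stays near 0, and by GC both run, in opposite directions.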

How the data were processed

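RNA was measured by poly(A)-selected RNA-seq with unique molecular identifiers (UMIs). Per the labels and the study's methods, the authors extracted UMIs and removed duplicates with UMI-tools 1.1.1, trimmed with cutadapt 2.7, aligned to hg38 with STAR 2.6.0 and counted reads per gene with HTSeq; the deposited values are raw counts per gene, not normalized. HTSeq summary lines, 17.1% to 21.4% of each library's reads, entered neither library sizes nor tests. Of 60664 genes, 60463 (99.7%) matched the reference by identifier. The authors' tables of comparisons (log2 fold changes, p-values, and 18 columns of per-sample values) and the exon counts were not used.

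The 12 libraries were fitted with edgeR 4.0.16 (R 4.3.3): filterByExpr, which left 12690 genes, TMM scaling, a quasi-likelihood F test of the interaction and Benjamini-Hochberg adjustment over all genes tested, at 0.05. SEs are the log2 value divided by the root of F. CPM values were scaled by TMM. The wild-type list came from an edgeR fit of 6 wild-type HCT116 libraries. Scripts were tested on simulated data. Alternatives were DESeq2 1.42.0, other scaling and filters, a replicate block, equal depth, each library left out, and corrections for transcript length and GC (splines per library, added after seeing the data). Named genes were the 12 smallest p in each direction that passed, filled by p up to 24, a few fixed genes and up to 3 genes per list; the other called genes are named too, except 1 negative gene, which, like 1 list member, is counted but not reported here. Members and lists were chosen with earlier results of these data known. Positions are hg38 from GENCODE 44. Counts limit precision: the interaction's median SE was 0.178, and 0.129 for the 5745 genes with a mean log2 CPM of 5 or more.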

Additional observations from a re-analysis of the deposited data

Results flagged for a closer look

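Each of the 33 genes below was singled out because its response to DNMT1i with HaloPROTAC3 differed from the response without it by the interaction test (edgeR quasi-likelihood, adjusted p below 0.05, 3 libraries per group). Values are log2 differences between the 2 responses. The positive values were RPS29 (0.73), GOLT1B (0.69), RPS21 (0.63), ERLEC1 (0.61), RPS13 (0.58), RPL27 (0.58) and RPS26 (0.46). The lowest negative values were MT-ND6 (-1.21), SYNE2 (-1.10), KMT2D (-1.10), EHBP1L1 (-1.01), HSPG2 (-1.0), HERC2 (-0.92) and PLEC (-0.85). They were followed by SUSD2 (-0.81), MKI67 (-0.77), SOGA1 (-0.76), HUWE1 (-0.76), PCNT (-0.76), NOTCH1 (-0.70), MALAT1 (-0.70), CDC42BPG (-0.69), TNRC18 (-0.67) and EP400 (-0.66), and by HCFC1 (-0.62), PRRC2C (-0.54), POLR2A (-0.45), MYH9 (-0.57), FLNC (-0.64), HIPK2 (-0.65), ERC1 (-0.57), LMNB2 (-0.58) and AGRN (-0.62). Groups of 3 libraries are too small to test for a single outlying library. What sets these genes apart was not tested.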

How the results depend on the processing

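The 7 positive and 27 negative genes were the same 34 with size factors from DESeq2. Counts moved by over 1.5 times without a filter on low counts (24 positive and 141 negative of 33590 genes, with all 34) and with DESeq2's Wald test (60 and 81 of the 2982 genes that kept an adjusted p, with 21 of the 34 and 10 without an adjusted p). They also moved, for alternatives chosen after seeing the data, with a length correction (6 negative), a GC correction (48 and 51) and both corrections (13 and 5). A stricter filter gave 7 and 25, equal depth 7 and 31, and a log2 difference beyond 0.5 gave 6 and 26. With 1 library left out, positive genes numbered 0 to 72 and negative genes 0 to 166. The highest numbers came without minusHaloPROTAC DMSO replicate 3. There were 0 and 0 without plusHaloPROTAC3 DMSO replicate 3, minusHaloPROTAC DNMT1i replicate 2 or minusHaloPROTAC DMSO replicate 2 (1335, 1478 and 1698 genes at an unadjusted p below 0.05 in edgeR). There were 0 and 1 without minusHaloPROTAC DNMT1i replicate 1, 3 and 9 without minusHaloPROTAC DMSO replicate 1, 6 and 14 without plusHaloPROTAC3 DNMT1i replicate 2, 12 and 33 without plusHaloPROTAC3 DNMT1i replicate 3, 10 and 87 without plusHaloPROTAC3 DMSO replicate 1, and 11 and 22 without plusHaloPROTAC3 DMSO replicate 2. The cause was not tested. All 34 genes kept their sign under every alternative.

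The labels number the replicates and do not say which libraries were handled together. Deviations of same-numbered libraries from their group means had r of -0.208 to 0.0953 over 18 pairs. For differently numbered libraries r was -0.176 to 0.199 over 36 pairs, so not every library correlated best with its own number. Between the DNMT1i groups r was 0.0937, 0.0486 and 0.0511 for the same number, and -0.0493 to -0.00724 for different numbers. Between the DMSO groups it was -0.0955, -0.054 and 0.0953 for the same number. Whether libraries of the same number share a batch was not tested. A fit with a replicate block called 7 and 25 genes, 29 of them among the 34, without RPS26, NOTCH1, CDC42BPG, EP400 and AGRN. Depth limits low genes: no called gene had a mean log2 CPM under 4.91.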
